A study of Homo sapiens with 33 samples.

Results

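The genes described here are 10 targets and inhibitors of the ERK pathway: the phosphatases DUSP4, DUSP5 and DUSP6, the Sprouty genes SPRY1, SPRY2 and SPRY4, the Sprouty-related genes SPRED1 and SPRED2, and the transcription factors ETV4 and ETV5. They were taken by gene symbol from an RNA-seq matrix of 58302 genes in 33 libraries, and all 10 passed the level filter that left 17803 genes for testing. The libraries came from 6 human lines: the pleural mesothelioma lines H2052, H2452, H28, MSTO-211H and MPP89, and MeT-5A, which is not a tumour line but mesothelial cells immortalized with SV40 antigens. The study compared cells kept in the CDK4/6 inhibitor palbociclib with their controls, and asked what remained once the drug was taken away.

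All cells grew in RPMI medium with serum. Controls received 0.1% DMSO and treated cells 1 µM palbociclib, both for 9 or 10 days. H2052 had 2 experiments, and H2452, H28 and MSTO-211H had 3 each, which gave 11 DMSO and palbociclib pairs in the 4 lines that the study describes as sensitive to the drug. Each of these 4 lines also had 1 library from cells that were kept in palbociclib and then left for 48 h without it. MPP89, which carries an RB1 mutation, had 2 pairs and MeT-5A had 1 pair, both described as resistant, and MeT-5A had 1 further library with no treatment. SV40 antigens bind the RB protein, and each condition was represented by a small number of established lines, so results over lines rest on 4 sensitive and 2 resistant genetic backgrounds.

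Values are counts scaled to 20000000 reads per library (CP20M). Depth could be read from the spacing of the low values in 23 libraries and was 12700000 to 19800000 reads (median 16300000), and the other 10 held at least 20000000, so that 1 read was worth at most 1.57 CP20M. The treatment was visible in the sensitive lines, where 4 of 4 proliferation genes were called lower in palbociclib (median log2 change −2.93), against 9.37% of all genes. Fitted alone, MSTO-211H had 3 of the 4 called lower. In the resistant lines 0 of 4 were called (median 0.01), where 0% of all genes were. Mesothelial markers summed to 37593 to 140688 CP20M in 5 lines and to 11230 to 20571 in H28, in which MSLN, CALB2 and PDPN did not pass 15 CP20M. Still, 5 of the 10 markers reached 100 CP20M in H28, with KRT19 at up to 11798 and WT1 at up to 360. PDPN was also low in MSTO-211H and MPP89, at no more than 3 and 20 CP20M. KRT19 did not pass 10, 13 and 3 CP20M in MSTO-211H, MPP89 and MeT-5A, and KRT5 did not pass 22 in any library. In the lines other than H28, 6 to 9 of the 10 markers reached 100 CP20M. KRT8 and KRT18 reached 91185 and 47685 CP20M in MSTO-211H, the line with the largest sum. WT1 did not pass 2 CP20M in MeT-5A. Of 9 markers of leukocytes, endothelium and epithelium, CD68 was present in all 33 libraries (123 to 1844 CP20M), PECAM1 reached 120, and the others stayed below 100, with CD3E at 0. The part of these markers in the results below was not tested.

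ERK is the last kinase of the cascade that runs from growth factor receptors through RAS, RAF and MEK. Active ERK switches on genes that damp the same cascade: the DUSP proteins remove phosphate from ERK in the nucleus (DUSP4, DUSP5) or the cytoplasm (DUSP6), Sprouty proteins act between the receptors and RAF, and SPRED proteins bring the RAS inhibitor neurofibromin to the membrane. ETV4 and ETV5 belong to the PEA3 group of ETS transcription factors, which ERK signalling induces, so transcripts of all these genes are often read as a measure of ERK output.

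In GENCODE release 44 on GRCh38, the build the authors aligned to, all members are protein-coding. DUSP5 is at chr10:110497907-110511533 (+ strand), and DUSP6 at chr12:89347235-89352501 (− strand). SPRY1 is at chr4:123396795-123403760 (+), SPRY2 at chr13:80335976-80341126 (−), and SPRY4 at chr5:142310427-142326455 (−). SPRED1 is at chr15:38252836-38357249 (+) and SPRED2 at chr2:65310851-65432637 (−). ETV4 is at chr17:43527844-43579620 (−) and ETV5 at chr3:186046314-186110318 (−). These coordinates span exons and introns.

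RefSeq promoter windows (GRCh38.p14) were found for 6 of the 10 members: DUSP6, SPRY1, SPRY2, SPRY4, SPRED1 and SPRED2, with 10 windows in all. Of each window, the 250 bases upstream of the start site were searched on both strands for CGGAA (the core of ETS sites, the letters that ETV4 and ETV5 can bind), CCGGAAG (a longer ETS form that holds the core), TGACGTCA (a cAMP response element) and TGANTCA (an AP-1 site). Shown are DUSP6 and SPRY4, which were called higher in palbociclib, beside the second window of SPRY1, a Sprouty gene that was not called. Capitals mark the ETS forms searched, and all 3 run 5′ to 3′ on the gene's strand.
DUSP6, chr12:89352502-89352751, − strand: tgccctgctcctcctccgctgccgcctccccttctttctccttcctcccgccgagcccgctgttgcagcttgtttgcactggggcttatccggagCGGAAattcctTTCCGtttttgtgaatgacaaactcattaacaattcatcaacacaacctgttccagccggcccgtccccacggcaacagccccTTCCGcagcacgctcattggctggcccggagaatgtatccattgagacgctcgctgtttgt
SPRY4, chr5:142324248-142324497, − strand: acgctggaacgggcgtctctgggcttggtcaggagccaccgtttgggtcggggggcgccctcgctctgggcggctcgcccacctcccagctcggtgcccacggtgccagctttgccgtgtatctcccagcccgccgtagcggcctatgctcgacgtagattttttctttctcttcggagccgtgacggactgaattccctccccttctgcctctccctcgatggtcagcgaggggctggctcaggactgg
SPRY1, chr4:123398136-123398385, + strand: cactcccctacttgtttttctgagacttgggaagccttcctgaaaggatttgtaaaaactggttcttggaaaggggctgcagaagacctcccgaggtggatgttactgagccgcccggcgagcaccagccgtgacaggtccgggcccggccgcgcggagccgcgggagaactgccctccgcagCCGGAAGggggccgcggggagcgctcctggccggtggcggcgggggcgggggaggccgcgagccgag

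The DUSP6 window held CGGAA at 3 places, beginning at −155, −144 and −61 from the start site. None of the motifs searched was in the SPRY4 window, although it holds GGAA after a letter other than C. The second SPRY1 window held the longer ETS form at −67. The start sites of these SPRY4 and SPRY1 windows lie inside the gene spans given above. Among the windows of all 35116 starts in the table, 30.3% held CGGAA, 8.52% the longer form, 1.65% the cAMP element and 6.57% the AP-1 letters. SPRY2 held CGGAA in 1 of its 3 windows, and no other window of the members held any of the motifs searched. These matches describe letters only.

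Palbociclib raised DUSP6, ETV5, DUSP4 and SPRY4 and lowered ETV4 in the sensitive lines, and 5 of the 10 members therefore passed the test (over 1.5-fold and a Benjamini-Hochberg adjusted p under 0.05 in limma, with each experiment as a block). Over all 17803 genes, 5.58% were called higher and 9.37% lower. The median log2 change of the 10 members was 0.33, against −0.11 for all genes tested. Pairs of one line share its background. With line means as units, DUSP4 (limma, adjusted p = 0.168) and SPRY4 (adjusted p = 0.0593) did not pass, while DUSP6, ETV5 and ETV4 did. Because the values are shares of a library from a whole culture, less RNA per cell and fewer cells with that RNA cannot be told apart, and a rise means a larger share of the reads.

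**Figure D1:**
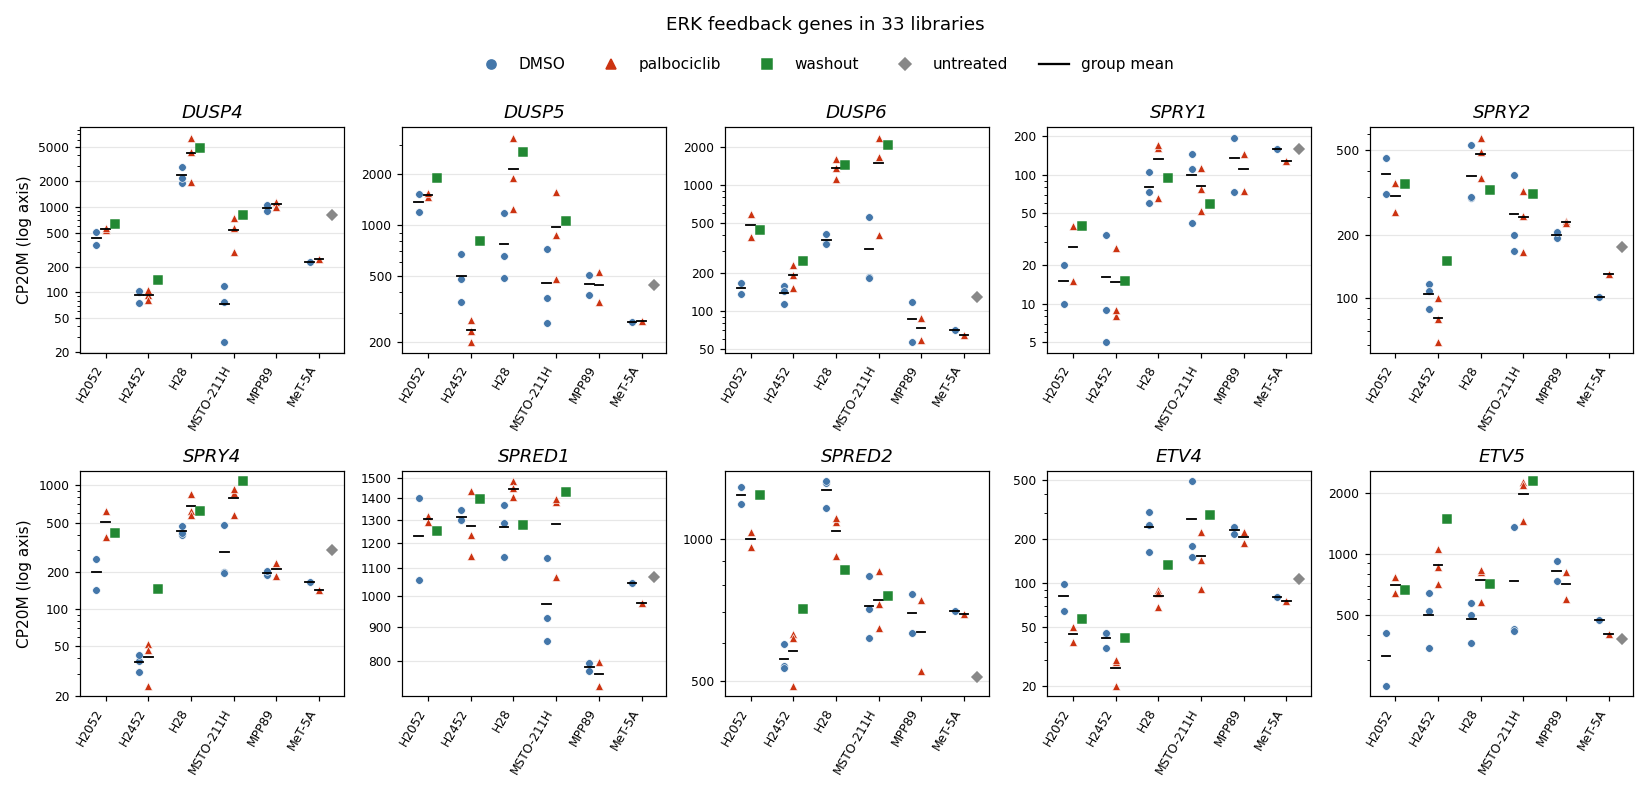
CP20M of the 10 genes (log axes) in the 33 libraries, by line, with DMSO as circles, palbociclib as triangles, washout as squares and the untreated MeT-5A library as a diamond. Bars are group means. DUSP6 triangles lie above all circles of the line in H2052 and H28, overlap them in H2452 and MSTO-211H, and in the 2 resistant lines no DUSP6 value passes 128 CP20M.

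DUSP6, the cytoplasmic ERK phosphatase, showed the largest fitted change of the 10 genes. In H28 it measured 348, 408 and 341 CP20M in DMSO and 1363, 1118 and 1614 in palbociclib. In MSTO-211H the values were 187, 184 and 556 in DMSO against 2392, 402 and 1687. On average these lines had the highest DUSP6 in both conditions, and the third MSTO-211H control stood above one treated library of the same line. The H2052 controls were at 166 and 135 CP20M and the treated cells at 386 and 584. H2452 moved least, from 114, 158 and 144 to 152, 233 and 192. DUSP6 was thus higher in 11 of 11 pairs, by 1.49 ± 0.25 (SE) on the log2 scale, or 2.81-fold (limma, adjusted p = 0.00035). Fitted apart, the 7 pairs of 9 days gave 1.45 (limma, adjusted p = 0.0131) and the 4 pairs of 10 days 1.56 (adjusted p = 0.0229).

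A second transcript limits the reading of DUSP6. AC024909.3 (ENSG00000274021), a long non-coding RNA annotated on the opposite strand at chr12:89351015-89353271, shares 1487 bases with the DUSP6 gene and covers the promoter window shown above. Of all 17793 non-member genes tested it followed DUSP6 most closely, with Pearson r = 0.978 over the 14 pair differences and 0.996 over the 33 library levels. Its count was 31.4% to 57.1% of that of DUSP6 (median 44.4%) in the 33 libraries, and it rose by 1.38 ± 0.25 (SE) on the log2 scale in the sensitive lines (limma, adjusted p = 0.000552). The libraries were directional, but the strand setting used for counting is not given in the sources used here, so reads of the 2 genes cannot be told apart. The next genes in likeness over the pair differences were MTPN (r = 0.962), AKIRIN1 (0.927), ABCC9 (0.911) and MRAP2 (0.905). Over library levels they were TNIP1 (0.908), SYNGR2 (0.886), MGRN1 (0.885) and TRNP1 (0.877). Points of one line share that line's background, so these values describe likeness only.

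DUSP4, a nuclear phosphatase of ERK and other MAP kinases, was higher in 9 of 11 pairs and rose by 1.02 ± 0.32 (SE) on the log2 scale over the sensitive lines (limma, adjusted p = 0.0188). MSTO-211H held the largest change. There DUSP4 was at 77, 26 and 118 CP20M in DMSO and at 570, 294 and 742 in palbociclib, with no overlap, a mean of 73.7 against 535.3. H28 had the highest DUSP4 of any line, 2895, 1894 and 2176 CP20M in DMSO, and 4339, 1971 and 6443 in palbociclib, so that a treated library fell among the controls. H2052 went from 510 and 361 to 533 and 559, and H2452 from 100, 76 and 105 to 92, 106 and 81, where the groups overlapped. Without MSTO-211H the fitted change of DUSP4 was 0.36 (limma, adjusted p = 0.128), and without H28 it was 1.13 (adjusted p = 0.0515). The 9-day pairs gave 0.98 (adjusted p = 0.104) and the 10-day pairs 1.10 (adjusted p = 0.128), neither past the threshold.

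The 4 sensitive lines differed in the size of the DUSP4 response (limma F test, adjusted p = 0.000941) and of the DUSP5 response (adjusted p = 0.00953), while no other member passed. That is 2 of 10 members where 37.1% of all genes were called. DUSP4 changed by 2.79 ± 0.27 (SD, n = 3) on the log2 scale in MSTO-211H, 0.73 ± 0.76 (SD, n = 3) in H28, 0.34 ± 0.39 (SD, n = 2) in H2052 and 0.00 ± 0.40 (SD, n = 3) in H2452. The test does not say which lines differ.

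DUSP5, a nuclear phosphatase specific to ERK, moved in opposite directions in different lines. H28 rose from 658, 487 and 1174 CP20M to 1907, 1243 and 3319. H2452 fell from 477, 346 and 668 to 200, 235 and 272. Neither line's groups overlapped, and the 3 pairs of each moved the same way. In MSTO-211H the pairs went from 261 to 1573, from 369 to 476 and from 719 to 874, all up but with one much larger step. H2052 barely moved, from 1527 and 1203 to 1461 and 1546. The log2 change was 1.45 ± 0.07 (SE) in H28 (limma, adjusted p = 0.0266) and −1.01 ± 0.18 (SE) in H2452 (adjusted p = 0.029). Over all 4 lines it was 0.44 ± 0.31 (SE) and did not pass (adjusted p = 0.263), and without H2452 it was 0.98 and did (adjusted p = 0.014).

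Among the 3 Sprouty members, SPRY4 passed. It was higher in 10 of 11 pairs, by 0.84 ± 0.21 (SE) on the log2 scale (limma, adjusted p = 0.00492). In MSTO-211H it measured 201, 196 and 475 CP20M in DMSO and 873, 572 and 935 in palbociclib. H2052 went from 256 and 143 to 380 and 621. In both lines every treated library stood above every control. H28 rose from 400, 414 and 470 to 622, 849 and 579, again with no overlap. H2452 held little SPRY4, 38, 43 and 31 CP20M in DMSO and 24, 52 and 47 in palbociclib, and its groups overlapped. Without MSTO-211H the change was 0.59 (limma, adjusted p = 0.052). The 9-day pairs gave 0.78 (adjusted p = 0.0551) and the 10-day pairs 0.94 (adjusted p = 0.0775). An antisense gene, SPRY4-AS1, and 2 entries of the intronic transcript SPRY4-IT1 share its locus, but none of them passed 62 CP20M.

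SPRY1 and SPRY2 did not pass. SPRY1 was at 5 to 34 CP20M in H2452 and at 10 to 40 in H2052 over DMSO and palbociclib, and its log2 change over the sensitive lines was 0.21 ± 0.15 (SE, 6 of 11 pairs higher, limma adjusted p = 0.262). SPRY2 ranged from 62 to 575 CP20M over the 33 libraries, with a change of −0.05 ± 0.18 (SE, 5 of 11 pairs higher, adjusted p = 0.82). Within H28 it went from 299, 300 and 531 to 493, 575 and 371, so 2 pairs rose and 1 fell.

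SPRED1 and SPRED2 had the smallest standard errors of the 10 members, and neither passed. SPRED1 stayed between 735 and 1483 CP20M in all 33 libraries and changed by 0.16 ± 0.07 (SE) on the log2 scale (8 of 11 pairs higher, limma adjusted p = 0.083). SPRED2 ranged from 487 to 1328 CP20M and changed by −0.11 ± 0.08 (SE, 3 of 11 pairs higher, adjusted p = 0.264). In H28 the SPRED2 values of 1317, 1328 and 1166 in DMSO all lay above those of 1088, 1110 and 918 in palbociclib, a log2 change of −0.29 that passed the p threshold (adjusted p = 0.0457) but not the fold threshold.

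**Figure D2:**
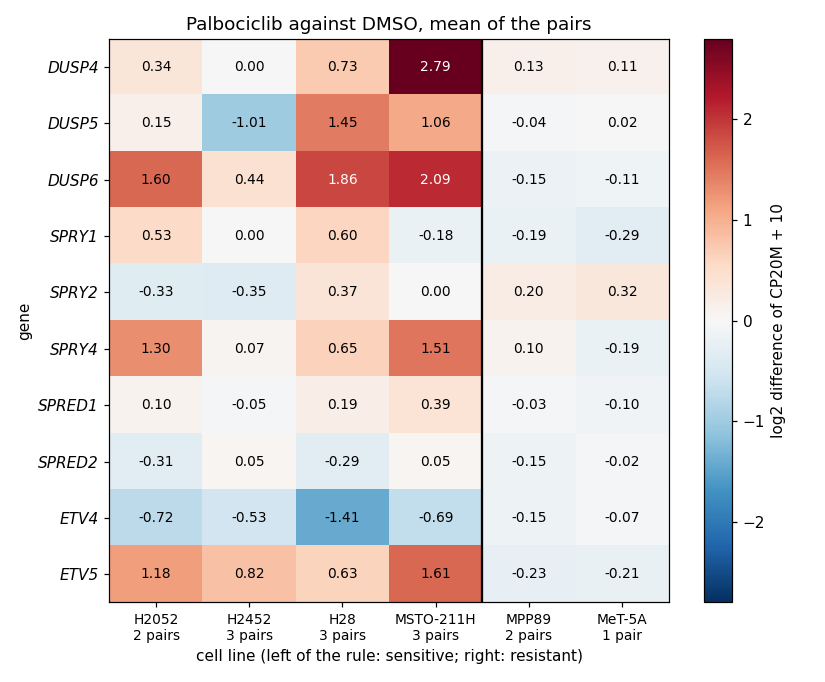
Mean log2 change of CP20M + 10 in palbociclib against DMSO for each gene (rows) and line (columns), with the number of pairs under each line. ETV5 and DUSP6 are positive and ETV4 negative in the 4 sensitive lines, DUSP5 runs from −1.01 in H2452 to 1.45 in H28, and MPP89 and MeT-5A stay between −0.29 and 0.32.

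ETV5 and ETV4, close relatives that both answer to ERK, moved apart. ETV5 rose in 11 of 11 sensitive pairs, by 1.05 ± 0.17 (SE) on the log2 scale (limma, adjusted p = 0.000265). Its level went from 409 and 225 to 641 and 768 CP20M in H2052, and from 522, 344 and 645 to 716, 866 and 1057 in H2452. In H28 it went from 501, 364 and 575 to 819, 584 and 836. None of these 3 lines showed an overlap between treated libraries and controls. In MSTO-211H ETV5 went from 429, 419 and 1355 to 2260, 1447 and 2192, and here too the groups did not overlap, although the third control stood far above the other controls. The 9-day and 10-day pairs gave 1.13 (adjusted p = 0.0073) and 0.91 (adjusted p = 0.0356).

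ETV4 fell by 0.85 ± 0.19 (SE) on the log2 scale and was lower in 10 of 11 pairs (limma, adjusted p = 0.00248). The fall was clearest in H28, from 248, 163 and 304 CP20M to 69, 90 and 85. H2052 fell from 99 and 65 to 50 and 40, and H2452 from 36, 45 and 46 to 29, 30 and 20. The treated and control values of these lines did not overlap, although H2452 held only 20 to 46 CP20M. MSTO-211H was mixed, with 150, 179 and 492 in DMSO and 222, 91 and 144 in palbociclib, and held the only pair that rose. The 9-day pairs gave −0.63 (adjusted p = 0.0685) and the 10-day pairs −1.23 (adjusted p = 0.0267).

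Set against each other within a pair, the log2 change of ETV5 exceeded that of ETV4 in 11 of 11 sensitive pairs, by 0.69 to 2.67 with a median of 1.83. In 10 of these pairs ETV5 rose while ETV4 fell. The same difference lay between −0.19 and 0.02 in the 3 resistant pairs. Both genes share their loci with others: the whole of ETV4 lies opposite DHX8, an RNA helicase gene at 939 to 1814 CP20M that changed by −0.28 ± 0.05 (SE), and the start of ETV5 lies within DGKG on the same strand, a diacylglycerol kinase gene at 39 to 323 CP20M that changed by 0.72 ± 0.18 (SE). The part of these neighbours in the ETV4 and ETV5 counts was not tested.

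**Figure D3:**
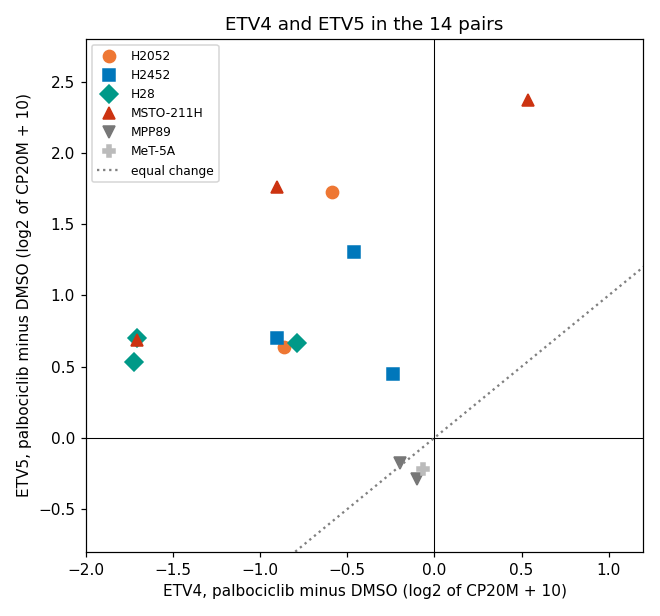
Log2 change of CP20M + 10 in palbociclib against DMSO for ETV4 (x axis) and ETV5 (y axis) in each of the 14 pairs, by line, with the dotted line marking equal change. All 11 sensitive pairs lie above the dotted line, 10 of them with ETV4 below 0, and the 3 resistant pairs lie close to it, with ETV5 below 0.

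Fitted line by line, 1 to 4 members passed. In H2052 it was DUSP6 alone (1.60 ± 0.27 SE on the log2 scale), 1 of 10 where 17.7% of all genes were called. H2452 had DUSP5 lower and ETV5 higher (0.82 ± 0.19 SE), 2 of 10 against 16.8%. H28 had DUSP5, DUSP6 (1.86 ± 0.17 SE) and ETV5 (0.63 ± 0.08 SE) higher and ETV4 lower (−1.41 ± 0.25 SE), 4 of 10 against 13.2%. MSTO-211H had DUSP4 (2.79 ± 0.18 SE) and SPRY4 (1.51 ± 0.25 SE) higher, 2 of 10 against 13.8%. The fits within a line rest on 2 or 3 pairs, and leaving out any one pair of H28 or of MSTO-211H left no gene called in that line. The DUSP6 call in H2052 was lost without either pair (limma, adjusted p = 0.0537 and 0.235), and the ETV5 call in H2452 without any of the 3 (adjusted p = 0.066 to 0.161). The DUSP5 call in H2452 was lost without the first or the third pair (adjusted p = 0.154 and 0.133).

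One control library stood apart in these genes. The third MSTO-211H control had a mean log2 level over the 10 members of 8.94, against 7.82 and 7.97 in the other controls of the line and 8.60 to 9.44 in its treated cells. It was the only 10-day control of the line and the DMSO reference for its washout library. In each sensitive line the 10-day pair was the last experiment, so day and experiment cannot be told apart. Leaving out any single sensitive pair, that of this control included, kept the count over the 4 lines at 4 members higher and 1 lower.

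In the resistant lines none of the 10 members was called, in a comparison where 0% of all genes were (limma, 0 of 17803, with 1258 at an unadjusted p under 0.05). DUSP6 measured 56 and 117 CP20M in MPP89 controls and 59 and 88 in palbociclib, and 70 against 64 in MeT-5A. ETV5 went from 737 and 922 to 601 and 816 in MPP89 and from 474 to 407 in MeT-5A. DUSP4 went from 1054 and 890 to 1144 and 990 in MPP89 and from 229 to 248 in MeT-5A. The treated values of each gene lay near their own controls, and no fitted change of a member was larger than 0.24 in size. ETV5 was lower in 3 of 3 pairs, by 0.23 ± 0.05 (SE) on the log2 scale, with an unadjusted p of 0.00387 in limma and an adjusted p of 0.689. DUSP4 (0.13 ± 0.05 SE) and SPRY2 (0.24 ± 0.09 SE) were the other members at an unadjusted p under 0.05.

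The difference in response between sensitive and resistant lines was tested directly, as an interaction of treatment and class. The units were the 11 sensitive and 3 resistant pairs, although class belongs to the line, with 4 sensitive and 2 resistant lines. No fit of this difference with line means as units was run. ETV5 passed, with a response 1.28 ± 0.34 (SE) higher on the log2 scale in the sensitive lines (limma, adjusted p = 0.03). That was 1 of 10 members where 6.75% of all genes were called, 202 of them higher and 1000 lower. DUSP6 had the larger difference, 1.63 ± 0.51 (SE), and narrowly missed (adjusted p = 0.0547). The other members gave SPRY4 0.84 ± 0.42 (SE, adjusted p = 0.215), DUSP4 0.89 ± 0.65 (SE, adjusted p = 0.401) and ETV4 −0.73 ± 0.38 (SE, adjusted p = 0.233). Leaving out any one of the 3 resistant pairs ended the ETV5 call, with adjusted p-values of 0.119 to 0.14. The resistant pairs were all treated for 9 days.

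After 48 h without the drug no raised member was called lower again. None of the 10 passed between washout and palbociclib in limma, and ETV4 alone had an unadjusted p under 0.05, where 1.4% of all genes were called, all of them higher, while 4 of 4 proliferation genes rose again (median log2 change 2.81). Measured against DMSO, DUSP6, SPRY4 and ETV5 were called higher after washout, 3 of 10 members where 5.76% of all genes were called. Of all genes, 500 were called higher and 526 lower.

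The matched libraries of H2052 measured 135 CP20M of DUSP6 in DMSO, 584 in palbociclib and 443 after washout. In H28 the same series was 341, 1614 and 1442, in MSTO-211H 556, 1687 and 2101, and in H2452 144, 192 and 249. Washout stood below palbociclib in H2052 and H28 and above it in MSTO-211H and H2452, and above DMSO in 4 of 4 lines. The log2 difference from DMSO was 1.58 ± 0.26 (SE, limma adjusted p = 0.00837), and that from palbociclib 0.03 ± 0.26 (SE, adjusted p = 0.984).

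After washout ETV5 measured 2279 CP20M in MSTO-211H and 1479 in H2452, where the matched controls were at 1355 and 645. H28 (711 against 575) and H2052 (664 against 225) were lower but also above their controls. It was 0.94 ± 0.20 (SE) above DMSO on the log2 scale (limma, adjusted p = 0.021). SPRY4 measured 1080 against 475 CP20M in MSTO-211H, 623 against 470 in H28, 410 against 143 in H2052 and 146 against 31 in H2452, a difference of 1.24 ± 0.32 (SE, adjusted p = 0.0365). The SPRY4 value in H2452 after washout was the highest in that line, 47 CP20M being its matched value in palbociclib. Both genes were higher than DMSO in 4 of 4 lines. With 1 library per line, these calls depended on the set of lines: without H2052 or without MSTO-211H none of the 3 members passed, and without H2452 only DUSP6 did. Without H28 the SPRY4 call was lost as well (adjusted p = 0.0563), so it was lost whichever of the 4 lines was left out.

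In the matched libraries ETV4 moved part of the way back toward DMSO, without passing the test. H28 measured 304 CP20M in DMSO, 85 in palbociclib and 132 after washout. The same series was 492, 144 and 288 for MSTO-211H. For H2052 it was 65, 40 and 57, with 46, 20 and 42 for H2452. It was above palbociclib in 4 of 4 lines and still below DMSO in all 4. The log2 difference from palbociclib was 0.69 ± 0.22 (SE), with an unadjusted p of 0.0103 in limma and an adjusted p of 0.192. That from DMSO was −0.54 ± 0.22 (SE, adjusted p = 0.129). Neither passed.

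DUSP5 in H2452, which had fallen in palbociclib, measured 668 CP20M in the matched control, 272 in palbociclib and 809 after washout. In H28, where it had risen, it measured 1174, 3319 and 2733. Over the 4 lines DUSP5 was 0.46 ± 0.33 (SE) above palbociclib (limma, adjusted p = 0.628). DUSP4 was 1.25 ± 0.39 (SE) above DMSO after washout, higher in 4 of 4 lines (adjusted p = 0.0663), with 118, 742 and 812 CP20M in MSTO-211H and 2176, 6443 and 4878 in H28. In the fit over the 4 lines SPRY1, SPRY2, SPRED1 and SPRED2 differed from palbociclib by at most 0.25 on the log2 scale after washout, and none passed. Single lines moved further in both directions, with SPRY2 in H2452 going from 80 to 151 CP20M and SPRY1 in MSTO-211H from 78 to 59.

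**Figure D4:**
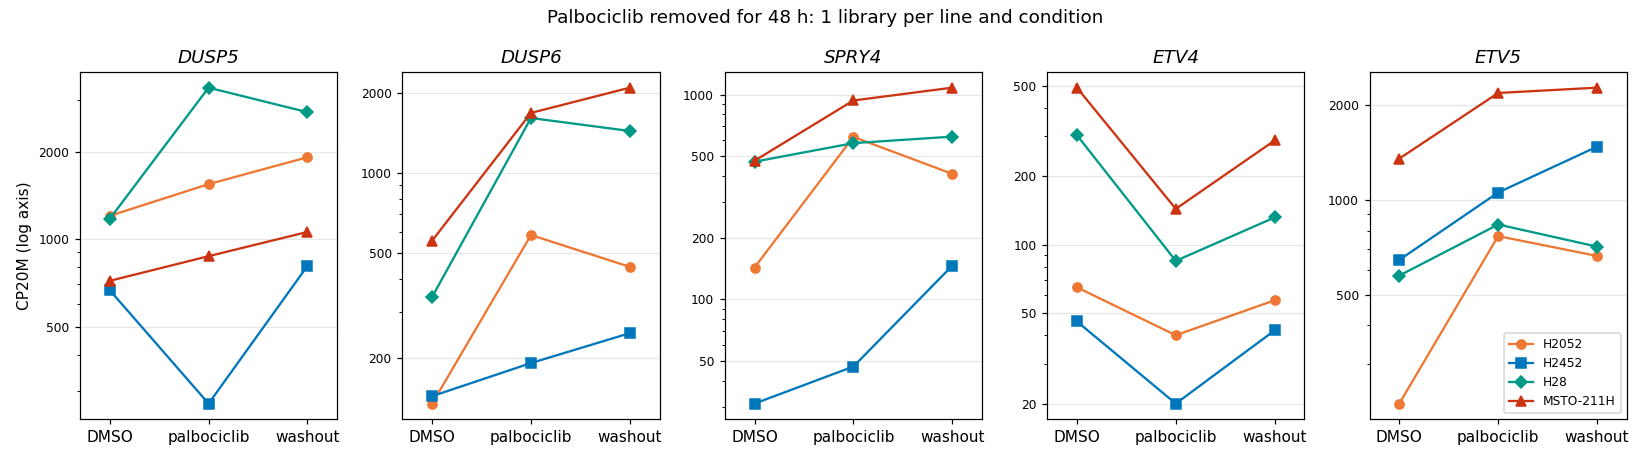
CP20M (log axes) of 5 members in DMSO, palbociclib and washout libraries of the same experiment, 1 line per cell line. DUSP6 and ETV5 stay above DMSO after washout in the 4 lines, ETV4 falls and partly returns in each, and DUSP5 in H2452 falls from 668 to 272 and returns to 809.

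The lines also differed before any treatment. In DMSO the levels of 9 of 10 members differed among the 6 lines (limma F test), against 95.6% of all genes, and ETV5 was the exception (adjusted p = 0.181). Without the third MSTO-211H control ETV5 passed too (adjusted p = 0.0307), and without the first H2052 control DUSP5 did not (adjusted p = 0.0674), with 8 to 10 members passing over all controls left out in turn. DUSP4 spread most. H28 (mean 2322 CP20M) was followed by MPP89 (972), H2052 (435.5), MeT-5A (229), H2452 (93.7) and MSTO-211H (73.7), a 27.9-fold span on CP20M + 10, and only the ranges of the lowest 2 lines overlapped. SPRED1 spread least, 1.66-fold from H2452 (1313) to MPP89 (785).

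DUSP6 in DMSO was highest in H28 (mean 365.7 CP20M) and MSTO-211H (309), whose ranges overlapped, then H2052 (150.5), H2452 (138.7), MPP89 (86.5) and MeT-5A (70). The ranges of neighbours in the last 4 overlapped as well. SPRY4 ran from H28 (428) through MSTO-211H (290.7), H2052 (199.5), MPP89 (195.5) and MeT-5A (165) to H2452 (37.3), the last 2 each apart from the line above. ETV4 ran from MSTO-211H (273.7), H28 (238.3) and MPP89 (227.5), with overlapping ranges, to H2052 (82), MeT-5A (80) and H2452 (42.3). ETV5 was highest in MPP89 (829.5) and lowest in H2052 (317), and neighbouring lines overlapped except MeT-5A (474) and H2052.

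DUSP5 was highest in H2052 (mean 1365 CP20M in DMSO), apart from H28 (773), and lowest in MeT-5A (265). SPRY2 was highest in H2052 (387) and H28 (376.7) and lowest in H2452 (104.7) and MeT-5A (102). SPRY1 had another order, with MeT-5A (157) and MPP89 (134) on top and H2452 (16) and H2052 (15) at the bottom. SPRED2 was about level in H28 (1270) and H2052 (1240), and lower in the other lines, down to 555.7 in H2452. H2452 thus held the lowest mean of SPRY4, SPRED2 and ETV4 among the 6 lines. The untreated MeT-5A library differed from the DMSO library of the line in DUSP4 (801 against 229 CP20M), SPRY4 (298 against 165) and DUSP6 (128 against 70), with 1 library of each and no replicate check.

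The rest of the pathway was read from 5 gene lists, against the same 5.58% of genes called higher and 9.37% lower. Of 19 genes of the ERK cascade itself, from RAS to ERK with their adaptors, 1 was called in the sensitive lines: NRAS fell by 0.89 ± 0.06 (SE) on the log2 scale in 11 of 11 pairs (limma, adjusted p = 6.13e-07). The median change of this list was −0.14, against −0.11 for all genes. MAP2K1, which encodes MEK1, changed by 0.18 ± 0.07 (SE) and was not called.

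Among 14 other negative regulators, 4 were called higher and 2 lower, with a list median of −0.06. The largest changes were in SPRY3, a further Sprouty gene (0.95 ± 0.12 SE, from a mean of 36.4 to 80.2 CP20M), and in DUSP9, a phosphatase that prefers ERK (−0.85 ± 0.23 SE, from 68.7 to 28.6). DUSP2, a nuclear phosphatase, was lower (−0.81 ± 0.24 SE) and SPRED3, a relative of SPRED1, higher (0.61 ± 0.15 SE). Apart from these, DUSP7 (−0.14 ± 0.13 SE) and IL17RD (−0.30 ± 0.16 SE), both inhibitors in the same loop, did not pass.

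Of 12 other ERK-induced genes tested, 2 were higher and none lower. CCND1, which encodes cyclin D1, a partner of the kinases that palbociclib inhibits, rose by 1.19 ± 0.10 (SE) in 11 of 11 pairs (limma, adjusted p = 2.46e-06), its mean being 12610 CP20M in DMSO and 26260 in palbociclib. PHLDA1 rose by 0.60 ± 0.16 (SE, adjusted p = 0.00671). EGR1 (−0.43 ± 0.32 SE), MYC (−0.30 ± 0.12 SE) and FOSL1 (−0.33 ± 0.17 SE) did not pass, and FOS stayed under 100 CP20M and was not tested. ETV1, the third PEA3 factor, changed by −0.10 ± 0.17 (SE) and did not pass.

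Growth factors came next. Of 17 ligands tested 2 were called higher, FGF7 (0.70 ± 0.23 SE) and FGF18 (0.62 ± 0.22 SE), both low, with means of 14.8 and 28.1 CP20M in palbociclib. Of 12 receptors 3 were lower, AXL (−0.98 ± 0.09 SE, from a mean of 12890 to 6552 CP20M), FGFR4 (−0.68 ± 0.17 SE) and PDGFRB (−0.60 ± 0.22 SE). EGFR (0.05 ± 0.07 SE) and MET (0.04 ± 0.10 SE) were not called. After washout AXL, FGFR4, PDGFRB and NRAS were lower than in DMSO, and CCND1 and SPRY3 higher, the only genes of these 5 lists called in that comparison.

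**Figure D5:**
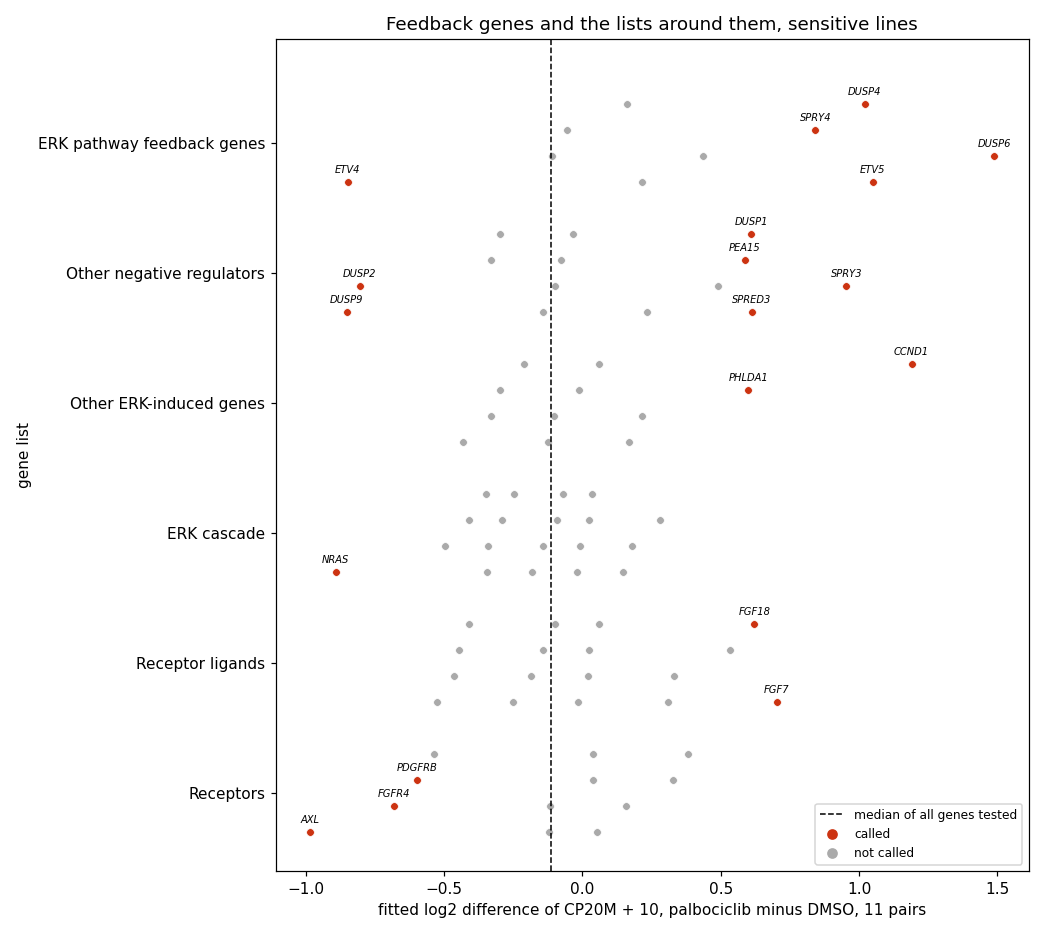
Fitted log2 change over the 11 sensitive pairs for each tested gene of the 10 members and of 5 lists around them, 1 point per gene, red where called and named. Points within a row are spread vertically only to be told apart. The members hold the largest rise shown, DUSP6 at 1.49, and the dashed line marks the median of all genes at −0.11.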

How the data were processed

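Total RNA of 33 cultures was sequenced. Per the study's methods and the labels, the authors trimmed reads with Trimmomatic (0.36), aligned them to GRCh38 with STAR (2.5.3) and counted them per gene with HTSeq (0.9.1). The deposited score of a gene is its count scaled to 20000000 reads per library and rounded up to a whole number (CP20M), so raw counts were not used here, and no count model was run. Library totals of the deposited values were 20007662 to 20021400.

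From there, genes with at least 100 CP20M in 1 or more of the 33 libraries (17803) were tested on log2(CP20M + 10) with limma (3.58.1, trended empirical Bayes) in R (4.3.3), which understates the change of low genes. The fits used each experiment as a block, or the line for washout, and genes over 1.5-fold with a Benjamini-Hochberg adjusted p under 0.05 were called. DMSO and palbociclib libraries of one experiment share a number in the labels. In the lines with more than 1 pair, their deviations from the group means correlated in every pair (r 0.181 to 0.783). In H2052 (0.337) and MPP89 (0.783), with 2 pairs each, both pairs give the same r by construction. MeT-5A had 1 pair and could not be checked. Replicates are separate experiments on the same line, and no 2 replicates held the same values (at most 4.33% of genes equal).

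The 10 members and the gene lists were chosen with earlier results of these data known. All members are named, with at most 4 called genes per list, those of the largest change over the sensitive lines, and some uncalled genes chosen after their values were seen. Likeness to DUSP6 was ranked by Pearson correlation. Alternatives were other pseudocounts (1 and 50), 2 other scalings, other filters, no trend, no block, line means, and leaving out each pair or line. The separate fits of 9-day and 10-day pairs were added after seeing the data. The procedure was also run on simulated data that held no differences between experiments. That run does not show how it behaves with the spread seen between real pairs. Figures were drawn with matplotlib (3.10.9).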

Additional observations from a re-analysis of the deposited data

Results flagged for a closer look

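The response to palbociclib differed among the 4 sensitive lines in DUSP4 (limma F test, adjusted p = 0.000941) and DUSP5 (adjusted p = 0.00953). For DUSP5 the 3 pairs of H28 rose and the 3 pairs of H2452 fell.

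The response of ETV5 was 1.28 higher on the log2 scale in sensitive than in resistant lines by the interaction test (limma, adjusted p = 0.03). That test took pairs as units, and pairs of the same line share its background. The call was lost when any one of the 3 resistant pairs was left out, without a filter, and without the replicate block. Pairs of MSTO-211H all rose, with a mean of 1.61, while both MPP89 pairs fell, with a mean of −0.23. The difference between these 2 lines alone was not tested.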

How the results depend on the processing

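No result of the 10 members changed direction while called, over 1665 values recomputed under the alternatives, and 1572 of these kept their side of the threshold. These totals include the F tests, which carry no direction and so could not reverse. They also include the fit of the resistant lines, where no gene was called under any alternative. Over the sensitive lines, 2663 genes were called, and 1687 with a pseudocount of 50. The 4 members called higher became 2 (DUSP6 and ETV5) in the 9-day pairs, in the 10-day pairs and with line means as units, and 2 to 5 when one line was left out. The ETV4 call was lost in the 9-day pairs, which left 0 members lower. The cause of these changes was not tested. Median-of-ratios scaling moved the median of all genes in this comparison by 0.17 and upper-quartile scaling by 0.10. Under the first, SPRY2 went from −0.05 to 0.13 and SPRED2 from −0.11 to 0.08, both uncalled. In H2052, 3143 genes and 1 member higher became 1185 and 0 with a pseudocount of 1, 284 and 0 without a filter, and 0 and 0 without the trend, and 3 members passed with the filter applied within the fit. In H2452, the 1 member higher became 0 with a pseudocount of 1, without a filter and without the trend, and 2 with median-of-ratios scaling. In MSTO-211H, 994 genes and 1 member passed without a filter, and 4 members with the filter within the fit. Without the replicate block, members higher were 0 in H2452, 1 in H28, 1 in MSTO-211H and 0 in the difference between sensitive and resistant lines (ETV5 adjusted p = 0.0523), and 2612 genes instead of 6601 differed in response among the sensitive lines. The block changed no member call over the 11 sensitive pairs. The difference between sensitive and resistant lines held 2 members under both other scalings (DUSP6 joined, 1.84 and 1.75) and 0 without a filter. Washout against palbociclib gave 141 genes with median-of-ratios scaling. Without the line block both washout comparisons gave 0 genes, and 0 members against DMSO. Levels among lines differed for 26822 genes without a filter. Leaving out one pair gave 0 to 2 members higher in H2052, 0 to 1577 genes, 0 members higher and 0 to 1 lower in H2452, and 0 genes and 0 members in H28 and in MSTO-211H. It gave 172 to 1435 genes and 0 to 2 members for the difference between sensitive and resistant lines, and 2 to 4 members for the difference among sensitive lines. With one line left out, washout against palbociclib gave 0 to 104 genes, and washout against DMSO 232 to 759 genes and 0 to 2 members. In H2452, SPRY1 and ETV4 stayed at or below 46 CP20M, where single reads weigh more.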
